A study of Homo sapiens with 24 samples.

Results

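Ribosome biogenesis factors build the ribosome but are not part of the finished particle. The members described here were 41 of the 25343 genes listed in each library, chosen by gene symbol: 6 genes for RNA polymerase I (Pol I) and its initiation factors, 9 for small nucleolar ribonucleoproteins (snoRNPs), 11 for small-subunit assembly, 10 for large-subunit assembly and 5 for abundant nucleolar proteins with several roles. They were chosen with earlier results of these data known. All 41 were listed and all 41 passed the filter on low counts in every comparison. RNA was measured by poly(A) RNA sequencing in HCT116, a colon cancer cell line, and A375, a melanoma cell line. In each line the groups were a PTDSS2 knockout with inhibitor, the knockout with vehicle, the parent with inhibitor and the parent with vehicle. The inhibitor was 0.1 µM DS07551382, directed at the phosphatidylserine synthase PTDSS1, the vehicle was DMSO, and both were left on for 24 h. PTDSS2 encodes the other phosphatidylserine synthase, and the parents are wild type for it. Each knockout is 1 clone, number 3 of HCT116 and number 54 of A375, so clone and genotype cannot be told apart. There were 8 groups of 3 libraries, 24 in all, and the study asks how loss of PTDSS2 changes the response to inhibition of PTDSS1.

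Ribosome assembly begins in the nucleolus, where Pol I transcribes the long precursor of the ribosomal RNAs. Guided by snoRNAs, box C/D snoRNPs methylate this precursor and box H/ACA snoRNPs convert uridines to pseudouridine, while assembly factors fold, cut and pack it with ribosomal proteins into the small and large subunits. Growing cancer cells spend much of their transcription on this pathway, and its factors are often regulated together with growth signals.

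Libraries held 6211629 to 11688267 expected counts, and the HCT116 knockout group with inhibitor was the shallowest on average, at 6211629 to 7910753. With vehicle, PTDSS2 ran from 5.46 to 7.91 CPM (counts scaled to library size) in HCT116 knockout libraries, against 33.1 to 37.8 CPM in parent libraries, and from 0.724 to 0.996 CPM in A375 knockout libraries, against 22.2 to 24.1 CPM in parent libraries. Of 12 colon epithelium markers, 7 averaged at least 1 CPM in HCT116, with CDX1, CEACAM5, KRT20, LGALS4 and VIL1 below that level. Of 12 melanocyte lineage markers, 7 did so in A375, with DCT, MLANA, PMEL, TYR and TYRP1 below it. Summed over its list, the colon set ran from 214 to 290.3 CPM in A375 libraries and from 2885 to 3624 CPM in HCT116 libraries, and the melanocyte set from 1238 to 1773 CPM in A375 and from 73.2 to 121 CPM in HCT116. With inhibitor, 4 of the 7 colon markers tested rose and 3 fell in HCT116 knockout cells, and 6 of the 7 melanocyte markers tested rose and none fell in A375 knockout cells; their part in the results below was not tested. The labels name no batch and do not say if replicates were separate cultures. A p-value here therefore measures the spread among these libraries and nothing wider, and that spread may be technical.

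With inhibitor, most of the assembly factors fell in both knockout clones and none of the 41 rose. In HCT116 knockout cells 37 of 41 fell, where 19.6% of the 13164 genes tested fell, 17.0% rose and 36.6% were called in either direction. In A375 knockout cells 35 of 41 fell, where 18.8% of 13455 genes fell, 18.6% rose and 37.4% were called. A gene is called, and said to rise or fall, at an adjusted p under 0.05 in edgeR's quasi-likelihood test with Benjamini-Hochberg adjustment over all genes tested. The median log2 fold change of the 41 was -0.23 in HCT116, against 0.00 over all genes tested, and -0.23 in A375, against 0.01. These are modest changes: the medians correspond to RNA levels that decreased by 14.9% in HCT116 and by 14.8% in A375. The single values ran from -0.55 for LYAR to -0.03 for NOB1 in HCT116, and from -0.46 for RRS1 to 0.05 for RRP12 in A375. In bulk RNA, fewer cells of a kind and less RNA per cell cannot be told apart, and CPM values are shares of the RNA sequenced.

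The same members fell in both clones for the most part: 34 were called in both, 3 in HCT116 and not in A375 (POLR1B, POLR1C and NOP10), 1 in A375 and not in HCT116 (NOB1) and 3 in neither (RRN3, NHP2 and RRP12). Of the 12003 genes tested in both lines, 1167 (9.72%) fell in both knockouts. These comparisons share no library. Libraries were also compared one by one. In HCT116, 37 members had all 3 knockout libraries with inhibitor below all 9 other libraries of the line, as did 17.6% of genes tested, and the exceptions were RRN3, NHP2, NAT10 and NOB1. In A375 this held for 31 members and 13.1% of genes tested.

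**Figure D1:**
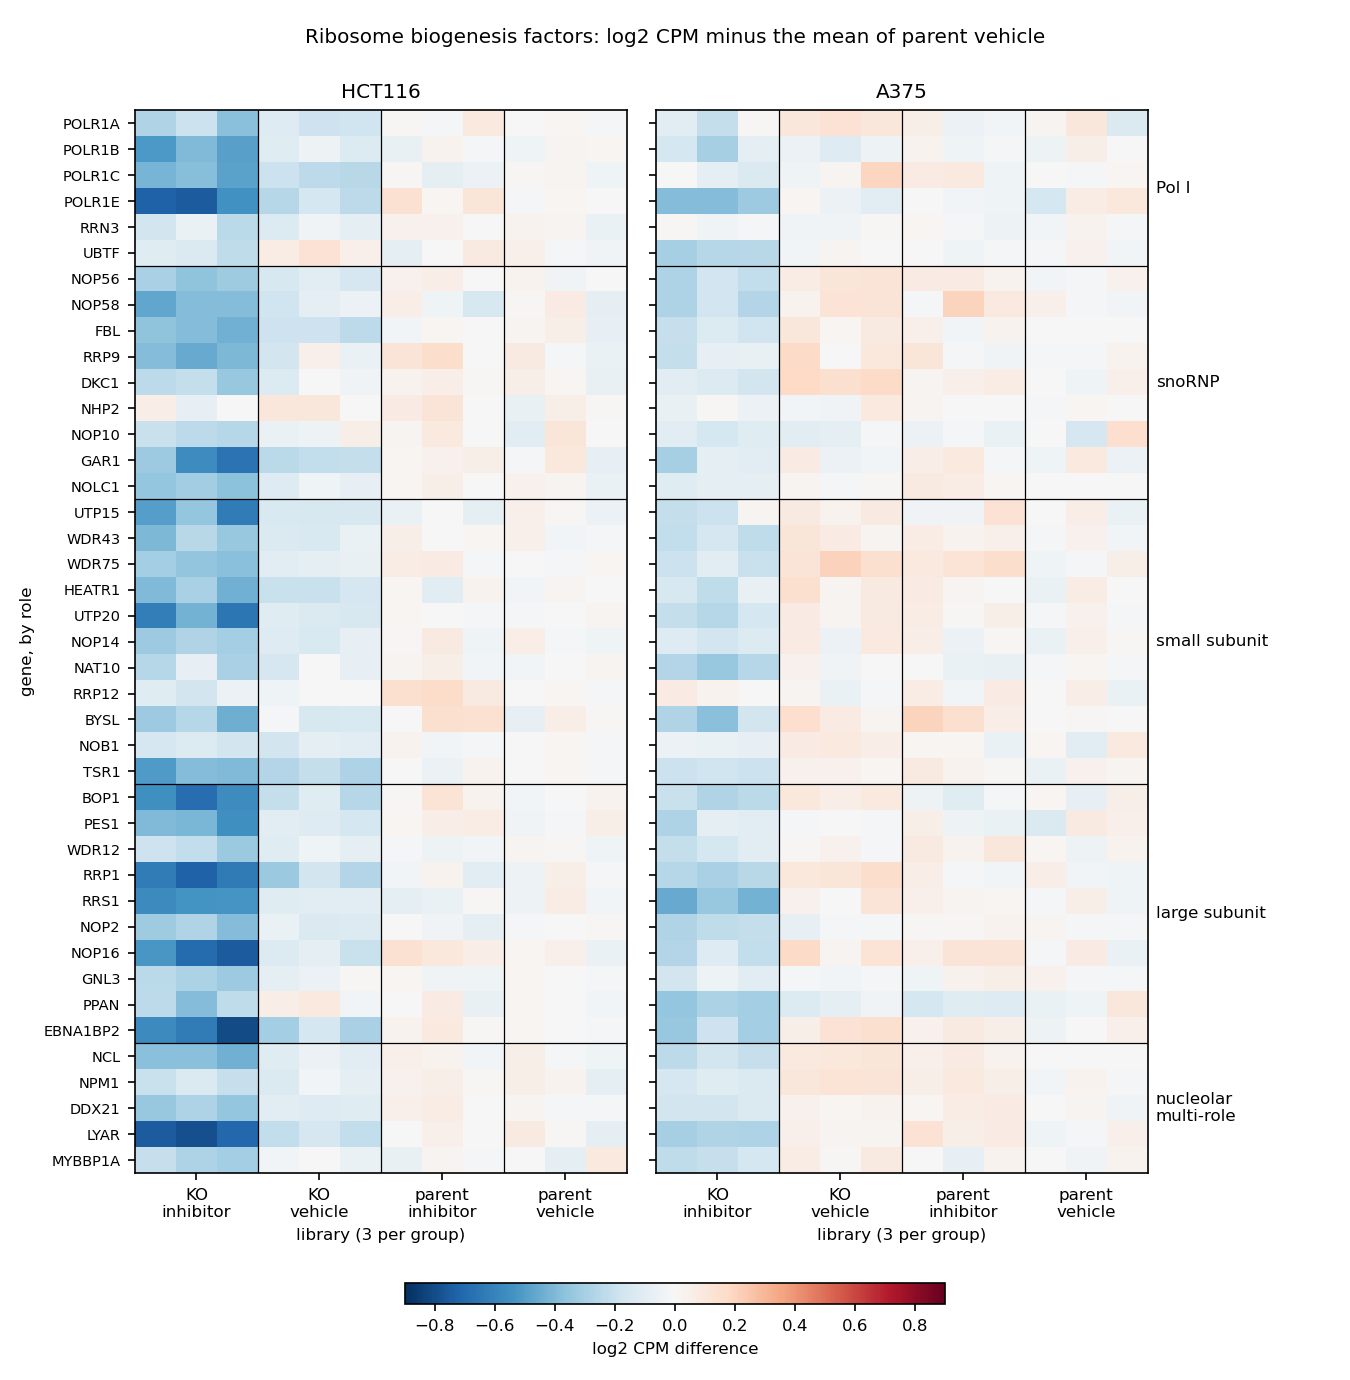
Colours give log2 CPM of each member in each of the 24 libraries, minus the mean of that line's 3 parent libraries with vehicle; rows are the 41 genes by role and columns are libraries. The 3 knockout libraries with inhibitor form the blue block at the left of each line, deeper in HCT116, while RRN3, NHP2 and RRP12 stay pale. The depth includes the difference of clone from parent with vehicle, at a median of -0.11 in HCT116 and 0.06 in A375. Against knockout vehicle libraries the median was -0.23 in both lines.

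Summed over the 41 members, RNA came to 10201 ± 206 CPM in HCT116 knockout cells with inhibitor and 11927 ± 244 CPM with vehicle (SD, n = 3 each). The sums in HCT116 parent cells were 12958 ± 184 CPM with inhibitor and 12775 ± 289.6 CPM with vehicle. In A375 knockout cells the sum was 10469.8 ± 137 CPM with inhibitor and 12306 ± 74.3 CPM with vehicle, and in A375 parent cells 12063 ± 48.7 CPM with inhibitor and 11725 ± 131 CPM with vehicle. In both lines the 3 knockout sums with inhibitor lay below every other sum of the line. In A375 parent cells the sums with inhibitor (12009.9 to 12105.5 CPM) lay above those with vehicle (11593.6 to 11856.2 CPM). The HCT116 parent sums overlapped. NPM1 and NCL make up much of these sums, so they weigh more here than in the counts of genes.

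**Figure D2:**
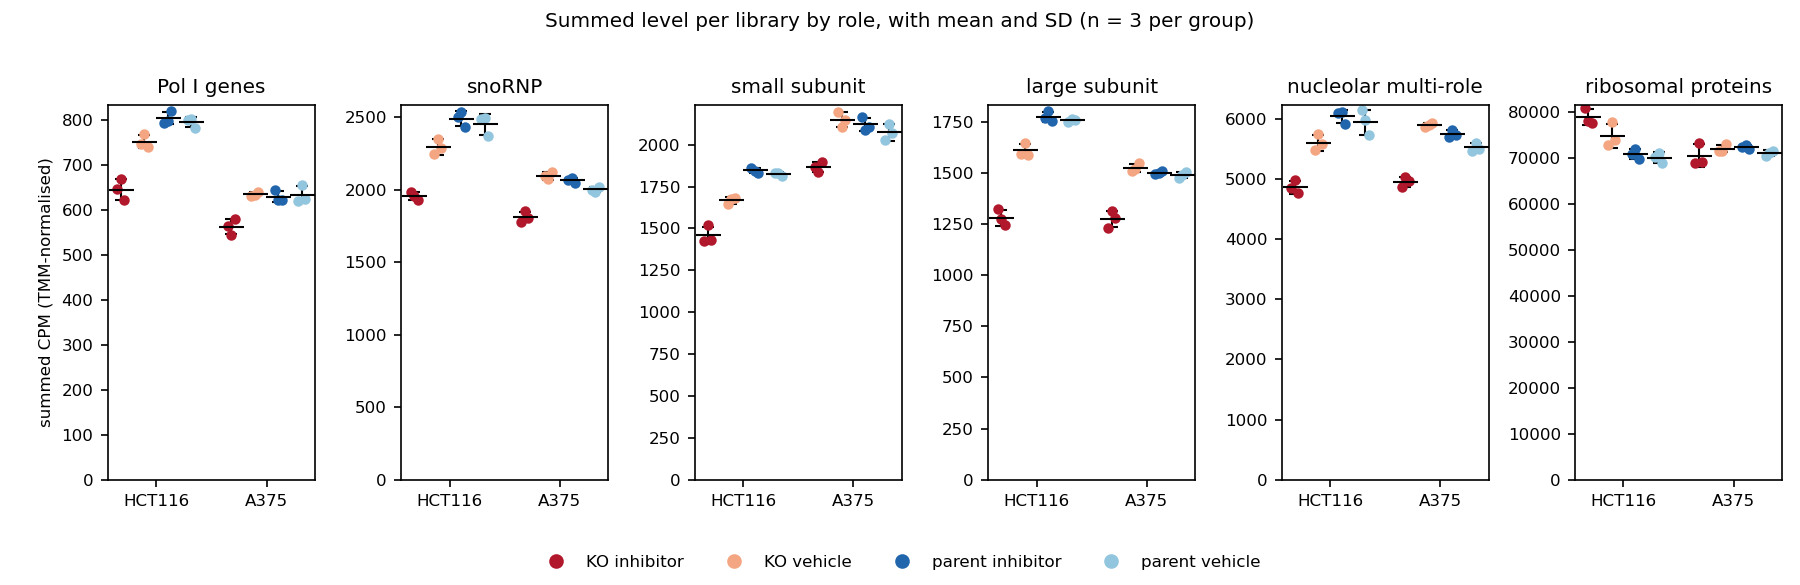
Summed CPM per library for the 5 roles and, for comparison, 79 ribosomal protein genes; points are libraries, with mean and SD for n = 3 per group. In every role the knockout libraries with inhibitor lie below the other groups of the line, while the ribosomal protein sums of libraries with inhibitor and with vehicle overlap in both knockouts. Their mean was 78812.6 CPM with inhibitor and 74829.0 CPM with vehicle in the HCT116 knockout. In the A375 knockout it was 70469.6 CPM with inhibitor and 72017.9 CPM with vehicle.

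Because the members moved together, their promoters were read from RefSeq (GRCh38.p14, 250 bases before to 50 after each annotated start), where 35 of the 41 were found; POLR1E, NOP58, NOLC1, RRP12, BOP1 and RRS1 were not. The search used CACGTG, the E box recognised by basic helix-loop-helix factors, which reads the same on both strands. It was present in 16 of the 35 members (45.7%), in 27 of 95 other ribosome biogenesis factors (28.4%), in 12.4% of genes tested in either line and in 8.77% of all genes with a promoter. Some genes have several annotated starts (45 windows for the 35 members), and a gene was counted if any window held the box. By role it was in 0 of 5 Pol I members, 4 of 7 snoRNP members, 5 of 10 small-subunit members, 4 of 8 large-subunit members and 3 of 5 multi-role members. The 18 matches began between position -237 and position 43 relative to the start, 8 of them before it. The stretches shown are from members whose values are given below, with the E box in capitals and each read 5′ to 3′ on the gene's strand. The first pair covers the 100 bases before an annotated start of UTP20 (chr12:101280005-101280104, plus strand) and of LYAR (chr4:4290022-4290121, minus strand). The changes of UTP20 and LYAR in HCT116 were more negative than the median member's. The others give the box with 7 bases on either side. LYAR and GNL3 each also had a window without the box, and EBNA1BP2 had a further window with its own box.
UTP20: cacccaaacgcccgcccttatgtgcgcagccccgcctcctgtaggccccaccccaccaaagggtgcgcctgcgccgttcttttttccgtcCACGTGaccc
LYAR: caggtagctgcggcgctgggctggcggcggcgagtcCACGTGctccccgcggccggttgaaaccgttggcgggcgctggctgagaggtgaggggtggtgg
RRP9: cagctgcCACGTGagttctg
WDR43: ggacgaaCACGTGgctgcag
NAT10: gcttgcgCACGTGctgtcta
GNL3: cagttcaCACGTGgcgccag
EBNA1BP2: tgttggcCACGTGggatcga
NOP10: tgacgaaCACGTGacgcggt
The short windows lie at chr3:51941897-51941916 (RRP9, minus strand), chr2:28894663-28894682 (WDR43, plus strand), chr11:34105607-34105626 (NAT10, plus strand), chr3:52686031-52686050 (GNL3, plus strand), chr1:43172795-43172814 (EBNA1BP2, minus strand) and chr15:34343135-34343154 (NOP10, minus strand). Split by the box, 16 of 16 with it and 16 of 19 members without it fell in HCT116 knockout cells, at median log2 fold changes of -0.24 and -0.20, and 15 of 16 with it and 15 of 19 without it fell in A375, at -0.23 and -0.23. NOP10, whose window held 2 boxes, was the member with a box that was not called in A375. The median GC content was 64.3% in member promoters and 58.7% over all promoters. Of the other motifs searched on both strands, CCGGAAGT was in 22.9% of member promoters, 27.4% of the other factors, 9.37% of genes tested and 4.95% of all. TGACGTCA was in 2.86% of member promoters, 5.26% of the other factors, 3.65% of genes tested and 2.25% of all. The palindrome bound by Kaiso (ZBTB33) was in 2.86% of member promoters, 2.11% of the other factors, 0.977% of genes tested and 0.505% of all. A match describes these letters and does not show that a factor binds there.

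**Figure D3:**
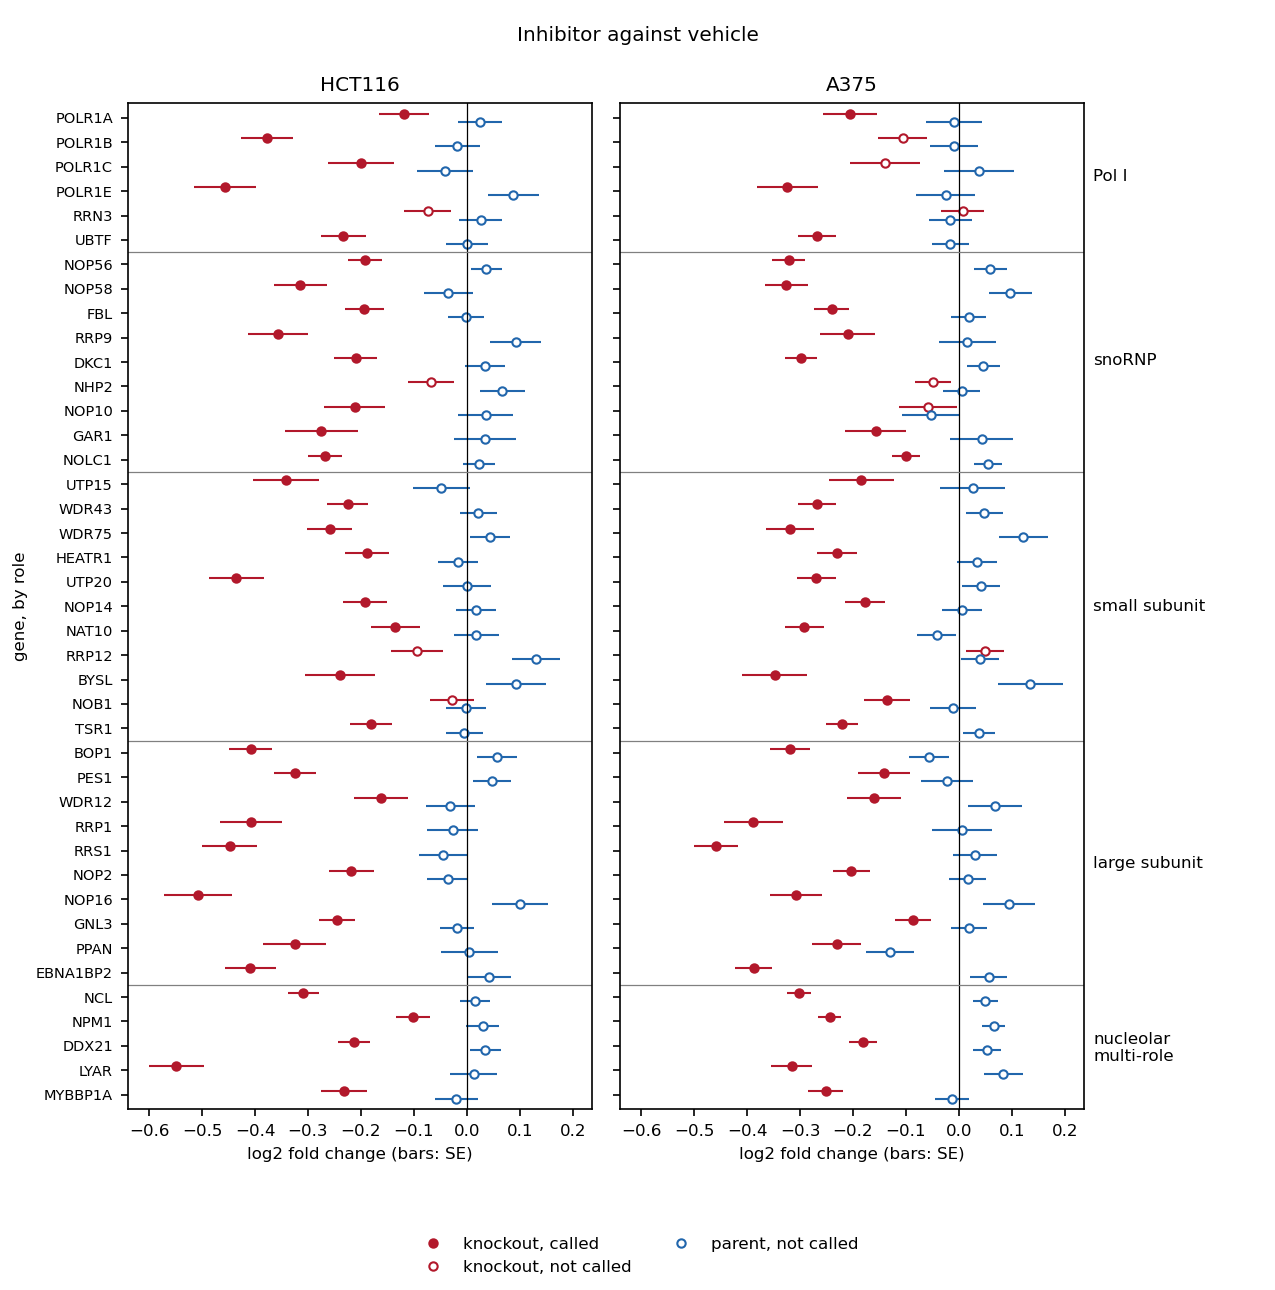
Log2 fold change of inhibitor against vehicle for each member, with its SE, in the knockout (red) and the parent (blue) of each line; filled points passed the test. Knockout points lie left of 0 for all 41 members in HCT116 and for all but RRN3 and RRP12 in A375. Parent points lie on both sides of 0, none of them called, at medians of 0.02 in HCT116 and 0.03 in A375.

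Of the 6 Pol I genes, 5 fell in HCT116 knockout cells (median log2 fold change -0.22) and 3 in A375 (median -0.17). POLR1E, a subunit of the heterodimer that helps Pol I initiate, had 58.2, 57.3 and 65.8 CPM in the HCT116 knockout libraries with inhibitor, against 80.6, 86.0 and 81.6 CPM with vehicle. Its log2 fold change was -0.46 ± 0.06 (adjusted p = 1.41e-08). All 3 treated libraries lay below all 3 vehicle libraries. In A375 POLR1E had 51.0, 51.0 and 53.3 CPM in the A375 knockout libraries with inhibitor, against 67.7, 64.3 and 62.6 CPM with vehicle, again without overlap, and a log2 fold change of -0.32 ± 0.06 (adjusted p = 1.41e-05). UBTF, the factor that binds ribosomal DNA and keeps it open, had 187, 184 and 172 CPM in the HCT116 knockout libraries with inhibitor, against 211, 220.0 and 208 CPM with vehicle. It fell in both lines, with log2 fold changes of -0.23 ± 0.04 in HCT116 and -0.27 ± 0.04 (adjusted p = 2.87e-08) in A375. UBTF in A375 had 153, 158 and 159 CPM in the A375 knockout libraries with inhibitor, against 185, 192 and 189 CPM with vehicle, and the groups did not overlap in either line.

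POLR1B, the second-largest subunit, separated the lines. In HCT116 it had 88.5, 96.2 and 90.4 CPM in the HCT116 knockout libraries with inhibitor, against 117, 123 and 116 CPM with vehicle, a log2 fold change of -0.38 ± 0.05 (adjusted p = 1.83e-08). In A375 POLR1B had 105, 95.3 and 110.0 CPM in the A375 knockout libraries with inhibitor, against 113, 108 and 113 CPM with vehicle, which overlap, and -0.11 ± 0.05 (adjusted p = 0.0654). Without A375 knockout library 3 with inhibitor its adjusted p was 0.0138. POLR1A, the catalytic subunit, had log2 fold changes of -0.12 ± 0.05 (adjusted p = 0.0456) in HCT116 and -0.21 ± 0.05 (adjusted p = 0.00139) in A375. The HCT116 call of POLR1A was lost in 12 of 16 alternative settings, among them without library 1 or 3 of either treatment (adjusted p 0.0508 to 0.278). POLR1C, shared by Pol I and Pol III, had -0.20 ± 0.06 (adjusted p = 0.0087) in HCT116 and -0.14 ± 0.07 (adjusted p = 0.0938) in A375, where its adjusted p was 0.0389 without vehicle library 1. RRN3, the factor that recruits Pol I to its promoter, had 146, 157 and 138 CPM in the HCT116 knockout libraries with inhibitor, against 149.8, 159.7 and 155 CPM with vehicle. Its values overlapped, at a log2 fold change of -0.07 ± 0.04 (adjusted p = 0.2), and in A375 the log2 fold change was 0.01 ± 0.04. Without HCT116 knockout library 2 with inhibitor its adjusted p was 0.0479. RRN3 has near-identical pseudogene copies, so its counts are less certain.

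Among snoRNP genes 8 of 9 fell in HCT116 knockout cells (median log2 fold change -0.21) and 7 of 9 in A375 (-0.21). All 4 box C/D genes fell in both lines, with medians of -0.26 in HCT116 and -0.28 in A375. NOP56, which scaffolds the box C/D particle with NOP58, had 401, 381 and 392 CPM in the HCT116 knockout libraries with inhibitor, against 442, 459 and 441 CPM with vehicle. In A375 NOP56 had 274, 294 and 285 CPM in the A375 knockout libraries with inhibitor, against 348, 358 and 359.8 CPM with vehicle. The groups did not overlap in either line, and the log2 fold changes were -0.19 ± 0.03 (adjusted p = 5.01e-06) in HCT116 and -0.32 ± 0.03 (adjusted p = 1.66e-11) in A375. RRP9, a protein specific to the U3 snoRNP that guides early cleavage, had 80.9, 77.4 and 79.8 CPM in the HCT116 knockout libraries with inhibitor, against 94.6, 109 and 102 CPM with vehicle, a log2 fold change of -0.36 ± 0.06 (adjusted p = 1.56e-06). Its A375 values were 65.8, 72.8 and 73.0 CPM in the A375 knockout libraries with inhibitor, against 86.3, 76.5 and 81.8 CPM with vehicle, also without overlap, at -0.21 ± 0.05 (adjusted p = 0.00123). NOP58 had log2 fold changes of -0.32 ± 0.05 in HCT116 and -0.33 ± 0.04 in A375, and FBL, the methyltransferase of the particle, -0.19 ± 0.04 in HCT116 and -0.24 ± 0.03 in A375.

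The box H/ACA genes were more mixed, with 3 of 4 lower in HCT116 and 2 of 4 in A375. DKC1, the pseudouridine synthase, had 190.0, 192 and 176 CPM in the HCT116 knockout libraries with inhibitor, against 205, 224 and 218 CPM with vehicle. In A375 it had 289.9, 285 and 277 CPM in the A375 knockout libraries with inhibitor, against 352, 344 and 351 CPM with vehicle. DKC1 fell in both, by a log2 fold change of -0.21 ± 0.04 (adjusted p = 6.56e-05) in HCT116 and -0.30 ± 0.03 (adjusted p = 8.00e-11) in A375. NHP2, a core protein of the same particle, had 166, 152 and 159.5 CPM in the HCT116 knockout libraries with inhibitor, against 171, 172 and 159 CPM with vehicle, which overlap. Its log2 fold changes were -0.07 ± 0.04 (adjusted p = 0.239) in HCT116 and -0.05 ± 0.03 (adjusted p = 0.276) in A375, so it passed the test in neither line. NOP10 had -0.21 ± 0.06 (adjusted p = 0.00318) in HCT116 and -0.06 ± 0.06 (adjusted p = 0.425) in A375, and GAR1 -0.28 ± 0.07 (adjusted p = 0.00148) in HCT116 and -0.16 ± 0.06 (adjusted p = 0.0314) in A375. The A375 call of GAR1 was lost in 6 of 16 settings, including without A375 knockout library 1 of either treatment (adjusted p 0.0581 to 0.226 over those settings). NOLC1, a phosphoprotein that escorts snoRNPs between Cajal bodies and nucleoli, had 564, 579 and 556 CPM in the HCT116 knockout libraries with inhibitor, against 663, 701 and 682 CPM with vehicle, a log2 fold change of -0.27 ± 0.03 (adjusted p = 2.54e-09). In A375 NOLC1 had 419, 425 and 427 CPM in the A375 knockout libraries with inhibitor, against 459.9, 447 and 455 CPM with vehicle, and the smaller change was -0.10 ± 0.03 (adjusted p = 0.00302). With limma on log2(TPM + 1) 3 further A375 calls were lost, those of NOLC1 (adjusted p = 0.0535), NOB1 (0.093) and POLR1A (0.0606).

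**Figure D4:**
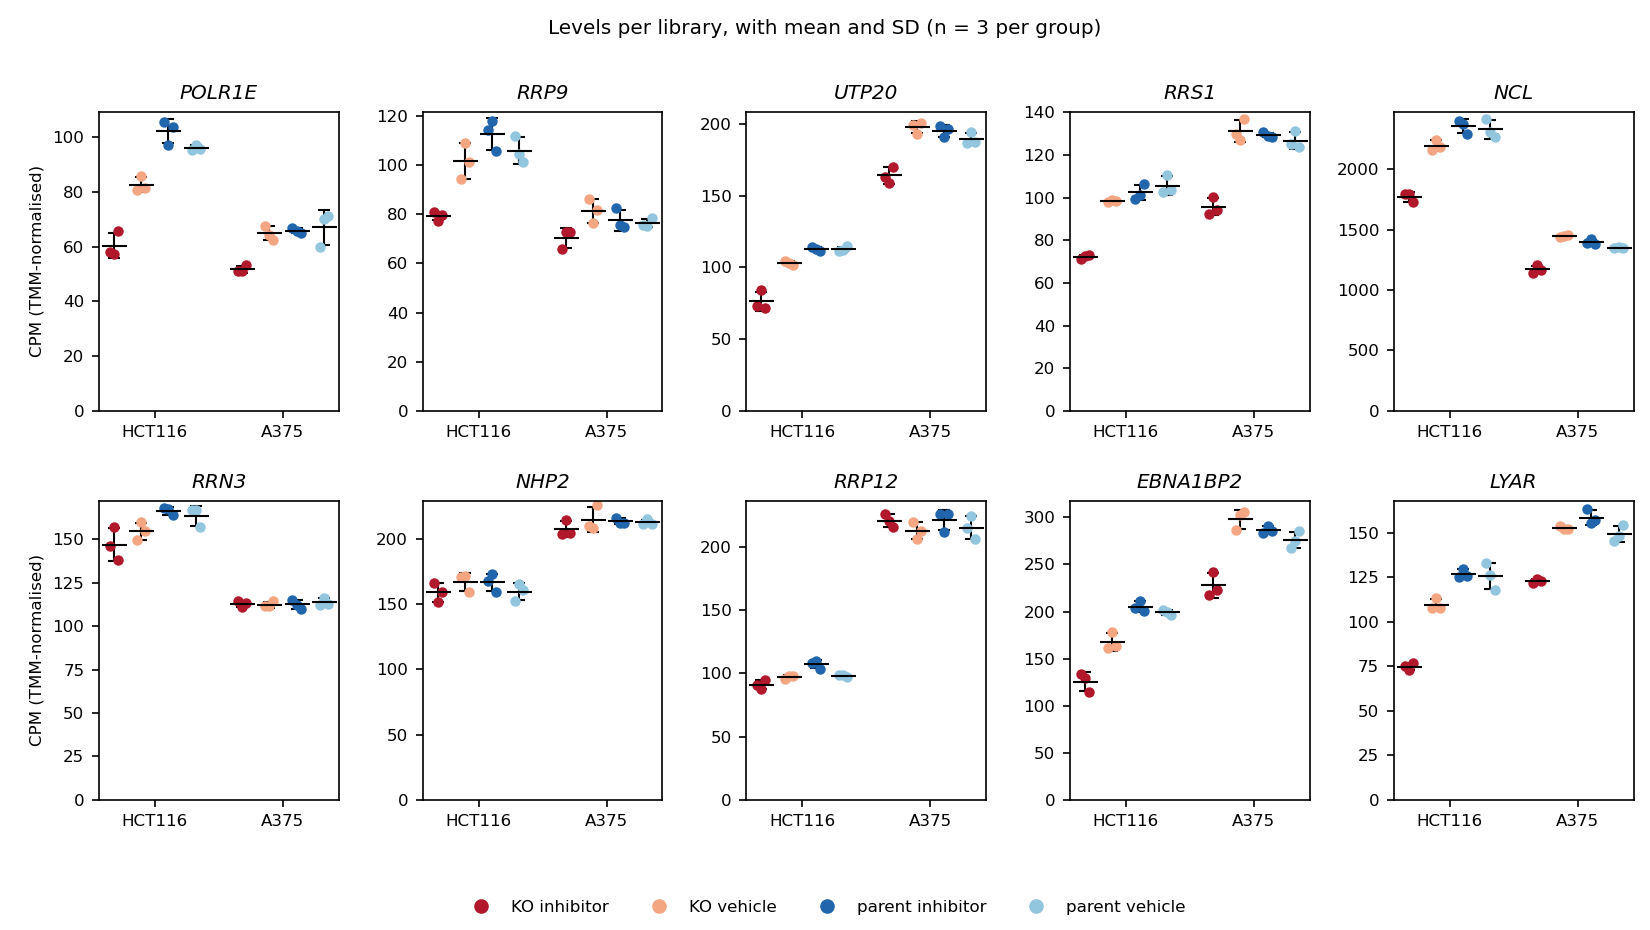
CPM per library for a pair of genes from each role, one of which was not called in the Pol I, snoRNP and small-subunit pairs (RRN3, NHP2 and RRP12); points are libraries, with mean and SD for n = 3 per group, and axes start at 0. POLR1E, RRP9, UTP20, RRS1, EBNA1BP2, NCL and LYAR are lowest in the knockout libraries with inhibitor of each line.

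Small-subunit factors fell in 9 of 11 cases in HCT116 knockout cells (median log2 fold change -0.19) and in 10 of 11 in A375 (-0.23). All 4 genes of the t-UTP group, which links transcription of the precursor to its processing, fell in both. WDR75, one of them, had 132, 128 and 126 CPM in the HCT116 knockout libraries with inhibitor, against 152, 155 and 157 CPM with vehicle, a log2 fold change of -0.26 ± 0.04 (adjusted p = 2.61e-06). In A375 WDR75 had 76.0, 81.0 and 75.7 CPM in the A375 knockout libraries with inhibitor, against 94.3, 100.3 and 96.1 CPM with vehicle, without overlap, at -0.32 ± 0.05 (adjusted p = 2.81e-07). WDR43, another t-UTP protein, had 214, 238 and 223 CPM in the HCT116 knockout libraries with inhibitor, against 258, 257 and 272 CPM with vehicle. Its log2 fold changes were -0.23 ± 0.04 in HCT116 and -0.27 ± 0.04 (adjusted p = 3.25e-08) in A375, where it had 169.9, 178 and 169 CPM in the A375 knockout libraries with inhibitor, against 213, 208 and 201 CPM with vehicle. HEATR1 had -0.19 ± 0.04 in HCT116 and -0.23 ± 0.04 in A375, and UTP15 -0.34 ± 0.06 in HCT116 and -0.18 ± 0.06 in A375. The A375 call of UTP15 was lost in 6 of 16 settings, among them without vehicle library 1 or 3 or library 1 or 2 with inhibitor (adjusted p 0.0503 to 0.123).

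UTP20, a large scaffold of the small-subunit processome, had 73.3, 84.1 and 72.0 CPM in the HCT116 knockout libraries with inhibitor, against 105, 103 and 102 CPM with vehicle. This was the most negative log2 fold change of the role in HCT116, -0.43 ± 0.05 (adjusted p = 3.78e-09). In A375 UTP20 had 163, 159 and 170.3 CPM in the A375 knockout libraries with inhibitor, against 199.6, 193 and 201 CPM with vehicle and -0.27 ± 0.04 (adjusted p = 4.67e-08). NAT10, which acetylates cytidines of the small-subunit RNA, had 156, 177 and 152 CPM in the HCT116 knockout libraries with inhibitor, against 168, 186 and 178 CPM with vehicle; these ranges overlap. Its HCT116 log2 fold change was -0.14 ± 0.05 (adjusted p = 0.0172), and the call was lost in 4 of 16 settings, among them without vehicle library 2 and without library 1 or 3 with inhibitor (adjusted p 0.0611 to 0.137). In A375 NAT10 had 145, 137 and 145 CPM in the A375 knockout libraries with inhibitor, against 178, 169.6 and 174 CPM with vehicle, without overlap, at -0.29 ± 0.04 (adjusted p = 1.74e-08). NOP14, another processome protein, had log2 fold changes of -0.19 ± 0.04 in HCT116 and -0.18 ± 0.04 in A375.

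Of the 4 late small-subunit factors, 2 fell in HCT116 and 3 in A375. BYSL, known in yeast for export of the early subunit, had -0.24 ± 0.07 in HCT116 and -0.35 ± 0.06 in A375, and TSR1, a GTPase-like factor of the cytoplasmic precursor, -0.18 ± 0.04 in HCT116 and -0.22 ± 0.03 in A375; these 4 values passed the test. NOB1, the endonuclease that trims the small-subunit RNA to its final end, had 149, 152 and 147 CPM in HCT116 knockout cells with inhibitor, against 147, 155 and 155 CPM with vehicle, a log2 fold change of -0.03 ± 0.04 (adjusted p = 0.643). In A375 NOB1 had -0.14 ± 0.04 (adjusted p = 0.00983). RRP12, which accompanies precursors during export in yeast, had 226, 221 and 216 CPM in the A375 knockout libraries with inhibitor, against 219.6, 206 and 213 CPM with vehicle, and 0.05 ± 0.04 (adjusted p = 0.3). In HCT116 its log2 fold change was -0.09 ± 0.05 (adjusted p = 0.133), although all 3 libraries with inhibitor (91.2, 87.7 and 94.8 CPM) lay below the 3 with vehicle (95.8, 98.4 and 97.9 CPM).

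Large-subunit factors fell in 10 of 10 cases in both knockouts, with the most negative median of any role, -0.37 in HCT116 and -0.27 in A375. RRS1, a large-subunit assembly factor first described in yeast, had 71.0, 72.6 and 72.9 CPM in the HCT116 knockout libraries with inhibitor, against 98.0, 98.9 and 98.3 CPM with vehicle. In A375 it had 92.3, 100.1 and 94.4 CPM in the A375 knockout libraries with inhibitor, against 129.9, 127 and 137 CPM with vehicle. Neither line showed overlap, and the log2 fold changes were -0.45 ± 0.05 (adjusted p = 1.41e-09) in HCT116 and -0.46 ± 0.04 (adjusted p = 6.69e-12) in A375. EBNA1BP2, the human form of the yeast assembly factor Ebp2, had 134, 129 and 114 CPM in the HCT116 knockout libraries with inhibitor, against 161, 178 and 163 CPM with vehicle. Its A375 values were 218, 242 and 223 CPM in the A375 knockout libraries with inhibitor, against 286, 302 and 305 CPM with vehicle. It fell by 0.41 on the log2 scale in HCT116 (adjusted p = 2.11e-09) and by 0.39 in A375 (adjusted p = 4.94e-12).

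The PeBoW complex of BOP1, PES1 and WDR12, needed for processing of the large-subunit RNA, fell in both lines. BOP1 had 232, 211 and 229.9 CPM in the HCT116 knockout libraries with inhibitor, against 294, 316 and 285 CPM with vehicle, a log2 fold change of -0.41 ± 0.04 (adjusted p = 5.30e-11). In A375 BOP1 had 156, 149 and 152 CPM in the A375 knockout libraries with inhibitor, against 192, 187 and 191 CPM with vehicle, at -0.32 ± 0.04 (adjusted p = 2.74e-09). BOP1 had the most negative value of the complex in both lines: PES1 had -0.33 ± 0.04 in HCT116 and -0.14 ± 0.05 in A375, and WDR12 -0.16 ± 0.05 in HCT116 and -0.16 ± 0.05 in A375. The A375 call of PES1 was lost in 5 of 16 settings, among them without any 1 of the 3 vehicle libraries or library 1 with inhibitor (adjusted p 0.0643 to 0.146), and that of WDR12 in 2 (0.0557 to 0.0568). In HCT116 WDR12 was not called without library 3 with inhibitor (adjusted p = 0.0871).

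GNL3, the GTP-binding protein nucleostemin, had 302, 294 and 286 CPM in the HCT116 knockout libraries with inhibitor, against 339, 345 and 361 CPM with vehicle, a log2 fold change of -0.24 ± 0.03 (adjusted p = 1.38e-07). In A375 GNL3 had 227, 247 and 237 CPM in the A375 knockout libraries with inhibitor, against 253, 250.5 and 253 CPM with vehicle, without overlap but with a small change of -0.09 ± 0.03 (adjusted p = 0.0374). That call was lost in 9 of 16 settings, among them without any 1 of the vehicle libraries or without library 1 or 3 with inhibitor (adjusted p 0.0582 to 0.217). NOP16, a large-subunit assembly factor known from yeast, had -0.51 ± 0.06 in HCT116 and -0.31 ± 0.05 in A375, and RRP1 -0.41 ± 0.06 in HCT116 and -0.39 ± 0.06 in A375. NOP2, which methylates a cytosine of the large-subunit RNA, had -0.22 ± 0.04 in HCT116 and -0.20 ± 0.04 in A375, and PPAN -0.33 ± 0.06 in HCT116 and -0.23 ± 0.05 in A375. PPAN overlaps a read-through transcript with its neighbour, and the sources used here do not give the strand setting.

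The 5 abundant nucleolar proteins fell in both knockouts, at median log2 fold changes of -0.23 in HCT116 and -0.25 in A375. NCL, nucleolin, which binds the nascent precursor and opens nucleolar chromatin, had 1794, 1793 and 1727 CPM in the HCT116 knockout libraries with inhibitor, against 2156, 2244 and 2186 CPM with vehicle. In A375 it had 1145, 1205 and 1168 CPM in the A375 knockout libraries with inhibitor, against 1438, 1444 and 1454 CPM with vehicle. Its changes of -0.31 ± 0.03 (adjusted p = 3.84e-12) in HCT116 and -0.30 ± 0.02 (adjusted p = 5.16e-14) in A375 had the smallest adjusted p of all members in each line. LYAR, a zinc finger protein of the nucleolus, had 75.0, 72.8 and 76.9 CPM in the HCT116 knockout libraries with inhibitor, against 108, 113 and 108 CPM with vehicle, and -0.55 ± 0.05 (adjusted p = 7.38e-12), the most negative log2 fold change of the 41. In A375 LYAR had 122, 124 and 123 CPM in the A375 knockout libraries with inhibitor, against 154, 152 and 152 CPM with vehicle, at -0.32 ± 0.04 (adjusted p = 4.77e-09). NPM1, a chaperone that forms the outer layer of the nucleolus, had 2316, 2438 and 2311 CPM in the HCT116 knockout libraries with inhibitor, against 2442, 2618 and 2524 CPM with vehicle, without overlap. The change was small, -0.10 ± 0.03 (adjusted p = 0.0094), and its call was lost in 4 of 16 settings (adjusted p 0.0547 to 0.0655), among them without vehicle library 2 and without library 1 or 3 with inhibitor. In A375 NPM1 had 2754, 2845 and 2795 CPM in the A375 knockout libraries with inhibitor, against 3279, 3336 and 3325 CPM with vehicle, at -0.24 ± 0.02 (adjusted p = 4.41e-12). NPM1 has near-identical pseudogene copies. DDX21, an RNA helicase, had -0.21 ± 0.03 in HCT116 and -0.18 ± 0.03 in A375, and MYBBP1A, a nucleolar regulator of transcription, -0.23 ± 0.04 in HCT116 and -0.25 ± 0.03 in A375.

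In the parent lines no member was called with inhibitor. edgeR called 0 of 41 in HCT116, where 0.0% of genes tested were called, and 0 of 41 in A375, where 0.0892% were. DESeq2 called 0 members in either line. At an unadjusted p under 0.05 there was 1 member in HCT116, RRP12 (0.13 ± 0.04), and 8 in A375, of which PPAN was lower (-0.13 ± 0.05) and the other 7 higher, where 4.18% of genes tested in HCT116 and 6.44% in A375 had such a p; among the 7 were BYSL with 0.14 ± 0.06 and WDR75 with 0.12 ± 0.05. The median log2 fold changes of the members were 0.02 in HCT116 and 0.03 in A375. In A375 parent cells 7 members had all 3 libraries with inhibitor above all 3 with vehicle, as did 6.5% of genes tested. For 1 member they lay below, as for 5.51% of genes. In HCT116 parent cells 2 members lay above and 0 below, where 4.75% and 4.95% of genes did. LYAR had 125, 129.9 and 126 CPM in HCT116 parent cells with inhibitor, against 133, 126 and 118 CPM with vehicle, with full overlap. NCL had 1392, 1419 and 1383 CPM in A375 parent cells with inhibitor, against 1347, 1354 and 1352 CPM with vehicle; the groups did not overlap, but the log2 fold change of 0.05 ± 0.02 (adjusted p = 0.758) was not called.

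The difference between clone and parent in their response was tested directly, with the log2 change in parent cells subtracted from that in knockout cells. It was negative and past the test for 34 of 41 members in HCT116, where 13.5% of genes tested were called downward, and for 29 of 41 in A375, where 13.8% were. No member was called upward, as 10.9% of genes tested were in HCT116 and 13.0% in A375. Calls of either direction made up 24.4% of genes in HCT116 and 26.9% in A375. In HCT116 the most negative differences were -0.61 ± 0.08 (adjusted p = 1.94e-07) for NOP16, -0.56 ± 0.07 (adjusted p = 1.14e-08) for LYAR and -0.545 ± 0.075 for POLR1E. In A375 they were -0.49 ± 0.06 (adjusted p = 1.55e-08) for RRS1, -0.48 ± 0.09 (adjusted p = 2.90e-05) for BYSL and -0.44 ± 0.05 (adjusted p = 2.76e-09) for EBNA1BP2. RRP12, not called in either knockout alone, had -0.23 ± 0.07 (adjusted p = 0.00948) in HCT116 and 0.01 ± 0.05 (adjusted p = 0.93) in A375. POLR1A lost its A375 call, -0.20 ± 0.07 (adjusted p = 0.0437), in 16 of 21 settings. In HCT116 NPM1 and HEATR1 each lost theirs in 7 of 21, at adjusted p from 0.0511 to 0.116 and from 0.0546 to 0.168.

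With vehicle alone, more members differed from the parent in the HCT116 knockout than in the A375 knockout. In HCT116, 20 of 41 members were lower in the knockout and none was higher, where 10.8% of genes tested were lower, 10.5% higher and 21.3% called, and the median log2 fold change was -0.11. In A375, 6 of 41 were higher and none was lower, with a median of 0.06. Of genes tested there, 9.18% were higher, 6.54% lower and 15.7% called. The share of members called was thus near that over all genes. The A375 count was 2 by library size alone and with TPM and 3 with DESeq2, and 3 without parent library 1 or 2 or knockout library 2. The A375 balance over all genes depended on scaling: 58.4% of genes called were higher in the knockout with TMM scaling, 38.6% by library size alone and 38.4% with TPM. These comparisons and those of inhibitor in the knockout share the knockout libraries with vehicle.

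TSR1 in HCT116 had 230.1, 239 and 228 CPM in the HCT116 knockout libraries with vehicle, against 276, 280.1 and 274 CPM in the parent libraries with vehicle, a log2 fold change of -0.25 ± 0.04 (adjusted p = 2.41e-07). RRP1, which acts early in large-subunit assembly in yeast, had 74.3, 83.6 and 77.8 CPM in the HCT116 knockout libraries with vehicle, against 90.8, 97.0 and 92.8 CPM in the parent libraries with vehicle, at -0.25 ± 0.05 (adjusted p = 1.69e-04). EBNA1BP2 had 161, 178 and 163 CPM in the HCT116 knockout libraries with vehicle, against 202, 199.5 and 197 CPM in the parent libraries with vehicle, at -0.25 ± 0.04 (adjusted p = 9.40e-06). None of the 3 genes overlapped between clone and parent. In HCT116, the 3 Pol I genes POLR1A, POLR1C and POLR1E were lower too, at -0.16, -0.23 and -0.22. UBTF, with a value of 0.08 ± 0.04 (adjusted p = 0.151), was not. UTP20 and NOP2 lost their calls in 9 and 8 of 16 settings, at adjusted p from 0.0504 to 0.142 and from 0.057 to 0.131, and UTP20 lost its call without any 1 of the 6 libraries. NCL lost its call without knockout library 1 or 3 or parent library 1 (adjusted p up to 0.196), and WDR43 (up to 0.147) and NOP14 (up to 0.207) without knockout library 1 or 2 or parent library 1. NOB1 lost it without knockout library 1 or parent library 2 (up to 0.132), PES1 without library 3 of either (up to 0.075) and GAR1 without parent library 2 (0.0566).

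In A375, DKC1 had 352, 344 and 351 CPM in the A375 knockout libraries with vehicle, against 310.2, 302 and 321 CPM in the parent libraries with vehicle, a log2 fold change of 0.17 ± 0.03 (adjusted p = 9.86e-05). NPM1 had 3279, 3336 and 3325 CPM in the A375 knockout libraries with vehicle, against 3016, 3129 and 3041 CPM in the parent libraries with vehicle, at 0.11 ± 0.02 (adjusted p = 1.95e-04). WDR75 had 94.3, 100.3 and 96.1 CPM in the A375 knockout libraries with vehicle, against 84.6, 86.3 and 90.0 CPM in the parent libraries with vehicle, at 0.15 ± 0.05 (adjusted p = 0.0202). These groups did not overlap. The other members called were NCL (0.10 ± 0.02), EBNA1BP2 (0.11 ± 0.04) and NOP56 (0.10 ± 0.03). DKC1 and NPM1 were called in every setting tried. Of 16 settings, EBNA1BP2 lost its call in 8 (adjusted p 0.0767 to 0.2) and NOP56 in 8 (0.0555 to 0.218). WDR75 lost it in 6 (0.0662 to 0.116) and NCL in 2 (0.0527 to 0.0622).

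**Figure D5:**
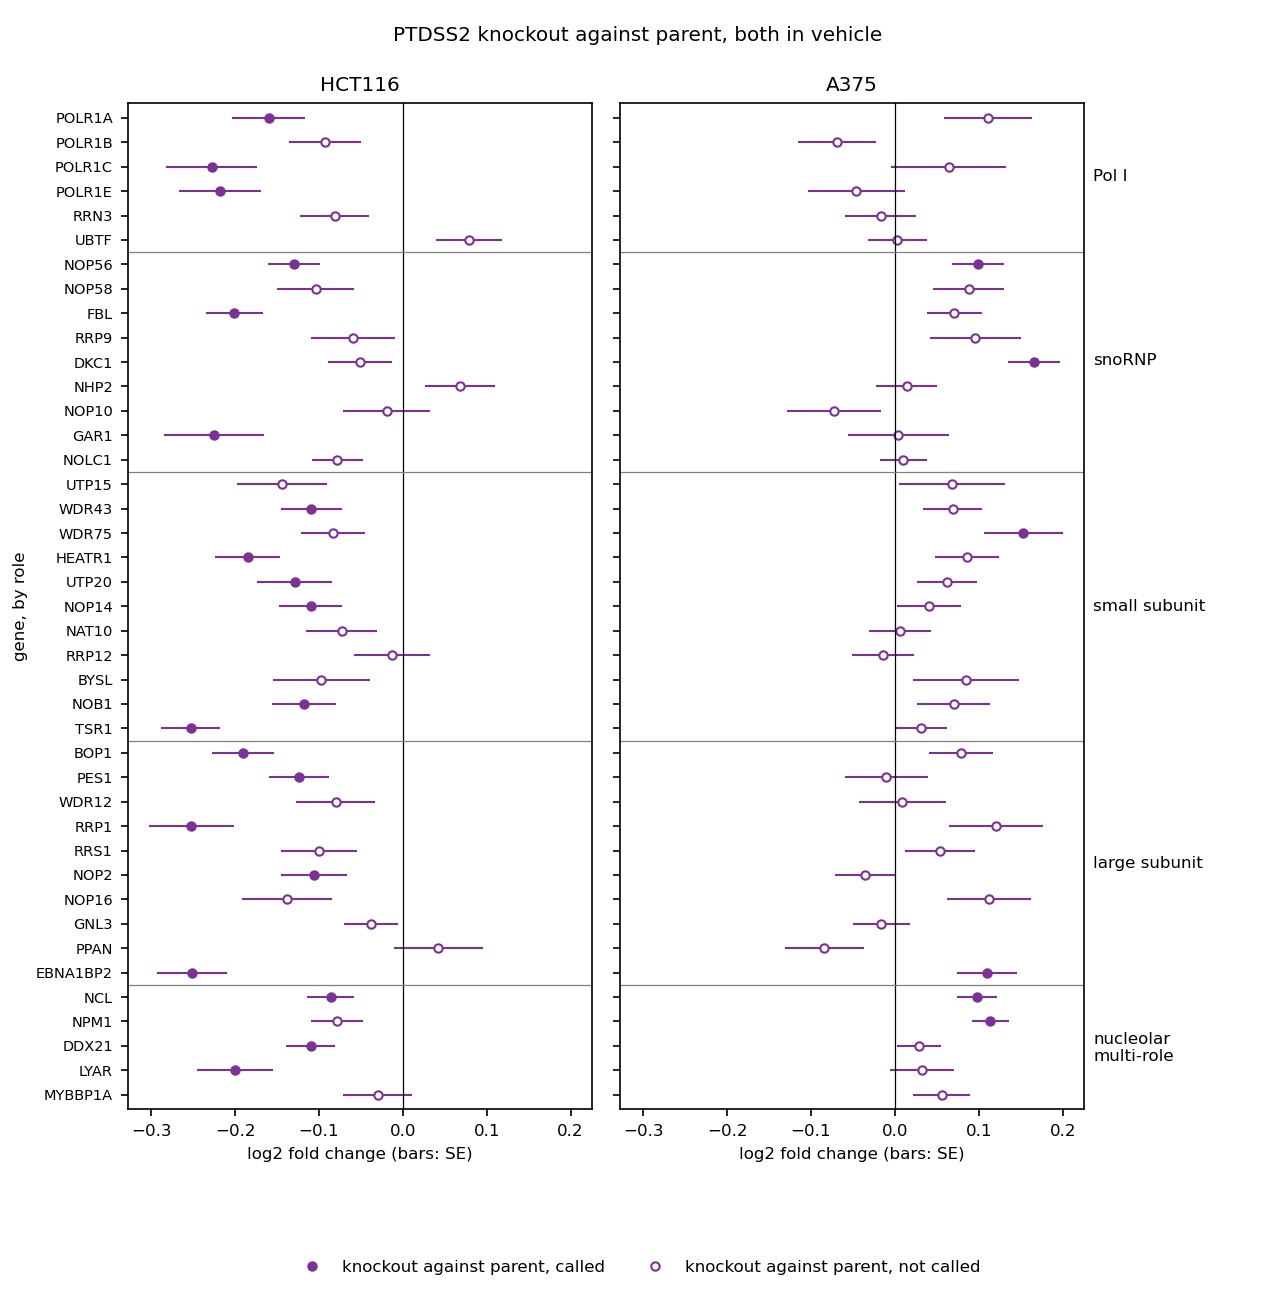
Log2 fold change of PTDSS2 knockout against parent, both with vehicle, for each member with its SE; filled points passed the test. In HCT116 20 members are filled and left of 0, and in A375 6 are filled and right of 0.

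The inhibitor effects in the knockout clones were compared as the effect in A375 minus that in HCT116. The difference passed the test for 8 of 41 members, a share near the 18.7% of genes tested that were called. In 6 of them the difference was positive, where 10.4% of genes tested were called upward, so the fall was smaller in A375: POLR1B (0.28 ± 0.07 (adjusted p = 0.00147)), LYAR (0.24 ± 0.07 (adjusted p = 0.00446)), PES1 (0.19 ± 0.06 (adjusted p = 0.0283)), NOLC1 (0.17 ± 0.04 (adjusted p = 0.00156)), UTP20 (0.17 ± 0.06 (adjusted p = 0.0456)) and GNL3 (0.16 ± 0.05 (adjusted p = 0.0104)). In 2 it was negative, where 8.31% of genes tested were called downward, so the fall was larger in A375: NPM1 (-0.14 ± 0.04 (adjusted p = 0.0105)) and NOP56 (-0.12 ± 0.04 (adjusted p = 0.0447)). The other 33 did not pass the test. RRS1, for example, had a difference of -0.01 ± 0.07, and NCL 0.01 ± 0.04. Several of these calls were lost in other settings: UTP20 lost its call in 12 of 20 settings (adjusted p 0.0504 to 0.181), NOP56 in 9 (0.0688 to 0.161) and PES1 in 8 (0.0525 to 0.125). POLR1B, NOLC1 and LYAR were called in every setting tried. The count of 8 was 4 without HCT116 knockout library 1 with vehicle and 5 without A375 knockout library 3 with inhibitor.

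Levels of the members spanned a wide range, compared here in TPM, which accounts for gene length as well as library size. In parent cells with vehicle NPM1 was highest, at 4562 ± 73.5 TPM in A375 and 3918 ± 164 TPM in HCT116 (SD, n = 3 each). This was 38.2% of the summed TPM of the 41 in A375 and 31.2% in HCT116. NCL was second, at 1030.2 ± 2.54 TPM in A375 and 1762 ± 49.8 TPM in HCT116. FBL followed in HCT116 at 599.5 ± 21.2 TPM, and NHP2 in A375 at 553 ± 3.76 TPM. At the low end, UTP15 had 22.7 ± 0.916 TPM in A375 and 29.6 ± 0.862 TPM in HCT116, and UTP20 42.8 ± 0.854 TPM in A375 and 25.2 ± 0.613 TPM in HCT116. POLR1A was near the bottom in both, at 32.7 ± 2.66 TPM in A375 and 42.4 ± 0.204 TPM in HCT116.

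Of the 41 members, 36 differed between the parent lines with vehicle, where 81.8% of genes tested did: 16 were higher in A375 (42.3% of genes tested) and 20 lower (39.5%). The most positive log2 fold changes were 1.198 ± 0.041 for RRP12, 1.05 ± 0.04 for HEATR1 and 0.81 ± 0.04 for UTP20, all small-subunit factors. The most negative were -0.85 ± 0.04 for BOP1 and -0.85 ± 0.04 for WDR75. RRP12 averaged 216 ± 9.14 CPM in A375 and 98.2 ± 1.15 CPM in HCT116, each scaled within its line.

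Other genes of the pathway were read from lists of 110 further ribosome biogenesis factors, none of them among the 41. These lists too were chosen with earlier results of these data known. With inhibitor 83 fell and 2 rose in HCT116 knockout cells, at a median log2 fold change of -0.23, and 65 fell and 5 rose in A375, at -0.15. Of all genes tested, 19.6% fell and 17.0% rose in HCT116, and 18.8% fell and 18.6% rose in A375. None of the 110 was called in either parent line. An unadjusted p under 0.05 was found for 4 of them in HCT116 and 13 in A375. Of all genes tested, 4.18% in HCT116 and 6.44% in A375 had such a p. POLR1G, a further Pol I subunit, had 43.0, 42.8 and 44.2 CPM with inhibitor, against 78.7, 79.8 and 84.5 CPM with vehicle in HCT116 knockout cells, a log2 fold change of -0.90 ± 0.06 (adjusted p = 2.76e-16). In A375 knockout cells it had 19.7, 22.1 and 19.0 CPM with inhibitor, against 27.7, 32.0 and 29.8 CPM with vehicle, at -0.56 ± 0.09 (adjusted p = 2.72e-06). PNO1, a late small-subunit factor, had 45.8, 50.2 and 45.4 CPM with inhibitor, against 70.7, 80.2 and 70.8 CPM with vehicle in HCT116 knockout cells, at -0.65 ± 0.07 (adjusted p = 2.68e-11). MRTO4, a large-subunit factor, had -0.45 ± 0.04 (adjusted p = 1.49e-12) in A375, and NUFIP1, a box C/D assembly factor, -0.41 ± 0.08 (adjusted p = 3.97e-05).

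The 2 of these genes that rose in HCT116 were large-subunit factors, as were 4 of the 5 that rose in A375. Large-subunit factors were also the largest list, with 49 of the 110, beside 42 small-subunit, 10 snoRNP and 9 Pol I factors. A difference between these lists was not tested. RSL24D1, whose yeast form joins the nucleolar particle, had 248, 251 and 243 CPM with inhibitor, against 195, 200.2 and 196 CPM with vehicle in HCT116 knockout cells, a log2 fold change of 0.33 ± 0.04 (adjusted p = 4.15e-09), and NOP53, which brings the exosome to the particle in yeast, had 0.28 ± 0.04 (adjusted p = 2.34e-07). In A375 ZNF622, a cytoplasmic maturation factor, had 0.20 ± 0.05 (adjusted p = 0.00187) and EFL1, a GTPase of the last large-subunit step, 0.20 ± 0.07 (adjusted p = 0.0164). Of 14 RNA exosome genes, which encode the nuclease that trims precursors, 7 fell and 1 rose in each knockout; EXOSC8 rose in HCT116, at 0.19 ± 0.07 (adjusted p = 0.0199). Of 11 RNA polymerase III subunits 4 fell and none rose in HCT116, POLR3K with -0.56 ± 0.10 (adjusted p = 1.16e-05), and 3 fell and 1 rose in A375, POLR3D with 0.30 ± 0.06 (adjusted p = 3.31e-05). With 14 and 11 genes these lists are small, and the shares over all genes were 19.6% falling in HCT116 and 18.8% in A375.

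Ribosomal protein genes, the structural parts that these factors assemble, were read as a further list. Of 79, 26 rose and 1 fell in HCT116 knockout cells with inhibitor, at a median log2 fold change of 0.06, where 17.0% of genes tested rose and 19.6% fell. In A375 2 rose and 19 fell, at -0.04, where 18.6% of genes tested rose and 18.8% fell, so the share that fell (24.1%) was near that over all genes. Against the parent with vehicle, 31 of 79 were higher and none lower in the HCT116 knockout, where 10.5% of genes tested were higher and 10.8% lower. In the A375 knockout 6 were higher (7.59%) and 1 lower, where 9.18% of genes tested were higher and 6.54% lower. CACGTG was in 4 of the 63 ribosomal protein promoters in the RefSeq table (6.35%). No test compared these genes with the 41 members as groups.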

How the data were processed

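Expression was measured in 24 libraries. The submitters' processing notes name STAR 2.4.2a, RSEM 1.2.23 and build hg19; the sources used here do not give annotation release, strand setting or filters. Per the file headers, the authors deposited RSEM's expected counts for each gene, which share out reads that match several genes. They also deposited TPM, which the report uses to compare genes of different length; FPKM was not used. Genes were named through RefSeq (25220 of 25343 identifiers matched; the other 123 held at most 0.0724% of a library's counts).

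Expected counts were rounded, filtered with edgeR's default (minimum count 10, minimum total 15), scaled by TMM and fitted with edgeR 4.0.16 in R 4.3.3, with 4 group means over the 12 libraries of a line or 8 over all 24 for comparisons between lines. The quasi-likelihood F test was robust and two-sided, with Benjamini-Hochberg adjustment over 13164 (HCT116), 13455 (A375) or 14637 (both) genes. SE is the log2 fold change divided by the square root of F. CPM uses TMM-scaled totals of the line. Replicates differed by more than counting noise. The test was also run on simulated counts, and the outcome is not given here.

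Members and lists were chosen with earlier results of these data known. Values per library are given for the 2 members of each role with the smallest adjusted p in each knockout inhibitor comparison, the 5 with the smallest adjusted p between clones and the 3 with the largest change per knockout against parent; of other pathway genes, the 3 largest falls and rises per knockout. Values of POLR1A, POLR1C, RRN3, NHP2, NOB1 and RRP12 were added after their values were seen. Alternatives were DESeq2 (1.42.0) and its size factors, library size alone, other filters, limma-voom and limma (3.58.1) on log2(TPM + 1), other sets of libraries, a replicate block and leaving out each library.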

Additional observations from a re-analysis of the deposited data

Results flagged for a closer look

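Effects that differed between groups by a test of the difference itself are listed here. The log2 change of the knockout with the parent's subtracted was called downward for 34 members in HCT116 and 29 in A375. Of genes tested, 13.5% in HCT116 and 13.8% in A375 were called downward. Upward calls made up 10.9% of genes tested in HCT116 and 13.0% in A375, against 0 and 0 members. The 5 with the smallest adjusted p in HCT116 were BOP1 (log2 difference -0.46), LYAR (-0.56), NCL (-0.32), NOP16 (-0.61) and POLR1E (-0.55). In A375 they were NCL (-0.35), NPM1 (-0.31), EBNA1BP2 (-0.44), NOP56 (-0.38) and RRS1 (-0.49).

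Between the knockout clones, the effect in A375 minus that in HCT116 was called upward for 6 members and downward for 2. These 8 of 41 were near the share called over all genes tested, 18.7%. Of the 8, 3 (POLR1B, NOLC1 and LYAR) were called in every setting tried. The upward ones were POLR1B (0.28), LYAR (0.24), PES1 (0.19), NOLC1 (0.17), UTP20 (0.17) and GNL3 (0.16). The downward ones were NPM1 (-0.14) and NOP56 (-0.12). Dixon's test for outlying libraries was not run on groups of 3.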

How the results depend on the processing

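No called member changed direction under any alternative. The median log2 fold change of the members in HCT116 parent cells with inhibitor, 0.02, was -0.002 without vehicle library 3. In knockout cells with inhibitor, 35 to 37 members fell in HCT116 and 28 to 35 in A375 over settings, and 33 to 38 in HCT116 and 30 to 35 in A375 when single libraries were left out. In parent cells the counts stayed at 0. For the knockout minus the parent, 30 to 35 (HCT116) and 25 to 29 (A375) fell over settings, and 30 to 36 (HCT116) and 27 to 30 (A375) without single libraries. Against the parent, 15 to 23 fell in the HCT116 knockout, 15 to 22 without single libraries; the 6 rises in the A375 knockout became 2 by library size alone and with limma on log2(TPM + 1) and 3 with DESeq2, and 3 to 6 without single libraries. The 8 members that differed between clones became 4 to 8 without single libraries, 4 to 7 upward and 0 to 3 downward, and 1 downward without a filter. Between parents 36 to 39 differed. The cause of these changes was not tested. Members called in every setting numbered 33 of 37, 27 of 35, 28 of 34 and 24 of 29 for the knockouts and the interactions of HCT116 and A375.

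Over all genes, DESeq2 called 1798 against 2801 for the HCT116 knockout against parent and 1371 against 2115 for A375; for A375 parent cells 12 genes were called, 6 with TPM, and for HCT116 parent cells 0, 1 with DESeq2. In the A375 interaction 48.5% of calls were upward, 60.6% with TPM.

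Pairing was read from each library's deviations from its group mean in log2 CPM, over 9760 genes in HCT116 and 9668 in A375. Between same-numbered libraries of different groups, these deviations correlated above 0.1 in 1 of 18 pairs in each line. Between differently numbered libraries they did so in 8 of 36 pairs in HCT116 and 5 of 36 in A375. These values give no sign of pairing by number, but they cannot show whether same-numbered libraries were handled together. With a replicate block, 37 members fell in the HCT116 knockout and 35 in A375, 23 (HCT116) and 6 (A375) differed by genotype, 35 (HCT116) and 28 (A375) by interaction, 9 between clones, 36 between parents and 0 in parent cells with inhibitor. SEs of the inhibitor effect in knockout cells ran from 0.02 to 0.07, and log2 changes near 0.1 lay on either side of the threshold. Depth and spread between replicates both enter these SEs (chi-square per degree of freedom of replicate pairs 1.48 to 2.10), and their parts were not tested.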
